A study of Rattus norvegicus with 6 samples.

Results

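The 10 genes described here carry prolactin, growth hormone and serotonin signals: the receptors Prlr and Ghr, the kinase Jak2, the transcription factors Stat5a and Stat5b, the feedback genes Cish and Socs2, the serotonin-making enzymes Tph1 and Tph2, and the serotonin receptor Htr2b. They were taken by the RefSeq transcript of their probes, which gave 11 probes for the 10 genes, out of 13903 genes that the array names. The adult stage had 3 islet samples, each of a male rat. The P10 stage had 3 pooled samples of pups at 10 days after birth. The labels used here give neither the strain, the adult age, the sex of the pups nor the number of pups in a pool, and no allele or agent, and all islets had been freed from the pancreas with collagenase. Total RNA of each sample was labelled with Cy3 and hybridised to its own 1-colour Agilent array.

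Prolactin and growth hormone bind receptors that have no enzyme activity of their own. The receptors bring JAK2 to the membrane, JAK2 phosphorylates STAT5A and STAT5B, and these enter the nucleus and switch on genes that include Cish and Socs2, whose products dampen the same receptors. In rodent islets prolactin and placental lactogen act on beta cells, the insulin-secreting cells, during pregnancy. Tph1 is among the genes that rise there, and the serotonin it makes acts on beta cells through HTR2B.

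Adult islets gave more Prlr and less Cish and Tph1 signal than P10 islets, and these 3 differences were the largest among the 10 genes. Of the 9 genes tested, 4 were higher in adults (Prlr, Ghr, Tph2 and Htr2b), 3 were lower (Cish, Socs2 and Tph1), and Jak2 and Stat5a did not pass the test. Tph2 and Htr2b entered the test only through the adult arrays, where they are higher, so their calls add nothing to the count. Without the filter on dim probes 2 genes were higher, Prlr and Htr2b. Ghr (limma adjusted p = 0.0648) and Tph2 (limma adjusted p = 0.0503) did not pass there. Stat5b was not well above background on any array and was not tested. Calls of this kind were common on the array: 23.7% of 11397 protein-coding genes tested were higher in adults and 28.7% were lower, so the members' counts alone do not set them apart. The 3 adult and the 3 P10 arrays did not overlap for 8 of the 9 genes, and likewise for 78.2% of the protein-coding genes. The members' median difference was -0.07, against -0.13 over those protein-coding genes. Prlr (3.34) and Tph1 (-3.47) lay outside the range from the 5th to the 95th percentile of these genes, which was -2.72 to 2.25.

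Levels are log2 signals minus the array's 75th percentile, so 0 is the signal of that percentile. Differences are adult minus P10 on this log2 scale with their standard error (SE), p-values are limma's with Benjamini-Hochberg adjustment over 18362 probes, and the threshold was 0.05. Levels of different probes are not compared, and of the gap between the Prlr probes only its difference between stages is read. Of 24684 probes, 17829 to 18731 on each array were well above background, and 0 spots were saturated. Arrays that share a scan date in the header are taken here as 1 slide, and no slide number was read. Adult arrays 2 and 3 differed by little more than repeated spots within an array (variance 1.07 times that of spot noise), whereas adult array 1 stood apart from both (15.52 and 13.5 times). P10 arrays 1 and 2 differed by less than spot noise (0.77 times over all probes, 0.97 times over brighter ones). P10 array 3 differed from them by 0.91 and 0.85 times over all probes, and by 2.3 and 1.49 times over brighter ones. Each of the pairs, adult arrays 2 and 3 and P10 arrays 1 and 2, was averaged and counted as 1 sample, and P10 array 3 was kept apart on its brighter probes alone, which leaves n = 2 per stage. Whether these arrays hold separate RNA is not settled by the values, and p-values measure the spread between these samples, which may be technical. The 75th percentile itself was 10.93 to 11.36 in adults and 9.92 to 9.99 at P10, so scaling lowers adult values by about 1 log2 unit more than P10 values. After scaling, the median difference over all probes was -0.23. In bulk RNA, fewer cells of a type and less RNA per cell cannot be told apart.

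Promoters are shown first because Cish is a textbook STAT5 target. RefSeq promoter sequences of the GRCr8 build, each from 250 bases before to 50 bases after a transcript start, were searched for TTCNNNGAA, the palindrome that STAT5 recognises. A palindrome reads the same on both strands, so 1 search covers both, and no other motif was searched. Of the 9 member genes with an entry there, which have 10 promoters, 2 promoters held the motif. Socs2 is not shown. The matches are in capitals below, and the remaining bases are in lower case.

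Cish promoter, chr8:116850719-116851018, plus strand: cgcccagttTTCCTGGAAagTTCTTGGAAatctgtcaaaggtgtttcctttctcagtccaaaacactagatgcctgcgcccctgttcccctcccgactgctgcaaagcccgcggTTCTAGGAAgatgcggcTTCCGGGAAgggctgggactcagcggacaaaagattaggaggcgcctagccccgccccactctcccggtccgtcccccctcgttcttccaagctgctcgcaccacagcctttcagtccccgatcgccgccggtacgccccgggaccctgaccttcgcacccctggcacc

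Prlr promoter 2, chr2:60909409-60909708, plus strand: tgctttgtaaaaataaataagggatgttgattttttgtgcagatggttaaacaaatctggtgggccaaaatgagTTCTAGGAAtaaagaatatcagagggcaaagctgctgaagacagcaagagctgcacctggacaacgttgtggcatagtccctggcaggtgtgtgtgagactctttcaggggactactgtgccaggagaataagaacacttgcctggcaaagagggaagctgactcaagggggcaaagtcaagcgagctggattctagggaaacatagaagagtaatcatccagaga

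The Cish promoter held 4 matches, at positions -241 to -233, -230 to -222, -136 to -128 and -119 to -111 from the start. The sequences are TTCCTGGAA, TTCTTGGAA, TTCTAGGAA and TTCCGGGAA. They stand as a close pair far from the start and a close pair nearer to it. Among 33469 rat promoters of the same length, 8.87% held at least 1 match, 0.547% held at least 2, and 2 promoters held 4 or more, of which Cish is 1. The second annotated Prlr start had 1 match, TTCTAGGAA, at positions -176 to -168. The promoters of Ghr, Jak2, Stat5a, Stat5b, Tph1, Tph2 and Htr2b and the other Prlr start had none of these letters in this window. Of 78 genes of the pathway lists described further on that have a promoter entry, 9 (11.5%) held a match in at least 1 promoter. This share counts genes, whereas the 8.87% counts promoters. The map of matches places these sites relative to each start. A match is a run of letters and not a measured binding site.

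**Figure D1:**
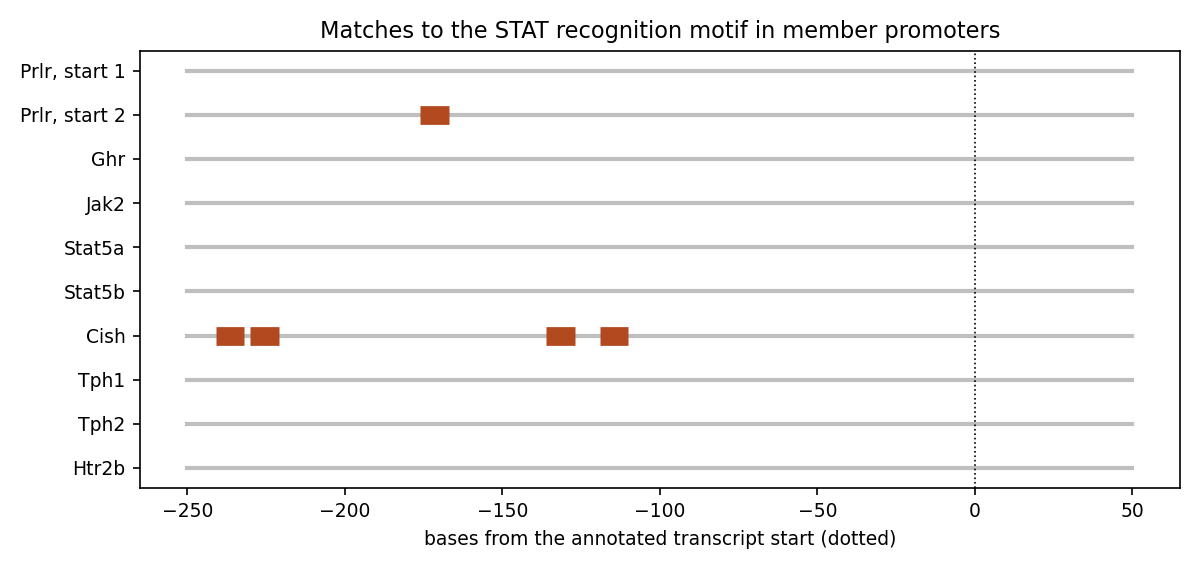
Matches to TTCNNNGAA (boxes) along 10 promoters of 9 genes, with distance in bases from the annotated transcript start on the x axis and 1 row for each promoter. Cish holds 4 matches, Prlr start 2 holds 1, and the other 8 promoters hold none.

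Prlr, the prolactin receptor, was measured by 2 probes, and both were higher in adults. The probe designed on NM_001034111.1 (probe 1) read 2.98, 2.51 and 2.48 on adult arrays 1, 2 and 3, against -0.69, -0.53 and -0.59 on P10 arrays 1, 2 and 3. Every adult array lay more than 3 log2 units above every P10 array. The means were 2.74 ± 0.34 in adults and -0.60 ± 0.02 at P10 (SD, n = 2 each), a difference of 3.34 (SE 0.22, limma adjusted p = 0.002), which is 10.1-fold. Before scaling, the signals were 20800, 11700 and 10900 in adults, against 628, 672 and 667 at P10, in fluorescence units.

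The probe designed on NM_012630.1 (probe 2) read -0.25, -0.13 and -0.10 in adults, against -1.88, -1.89 and -1.97 at P10. The stages again did not overlap, and the difference was 1.75 (SE 0.14, limma adjusted p = 0.00278), or 3.36-fold. The 95% intervals of the differences, 2.74 to 3.94 for probe 1 and 1.36 to 2.14 for probe 2, do not meet. Probe 1 exceeded probe 2 by 3.23, 2.64 and 2.58 on the adult arrays, against 1.18, 1.37 and 1.38 on the P10 arrays. The gap between the probes was thus wider on each adult array, by 1.59 on average. An exact permutation test of that gap, two-sided, gave p = 0.333 over the 4 counted samples and p = 0.1 over the 6 arrays, each the smallest p its design allows. The prolactin receptor is known to occur as long and short forms, but the files do not say which form each probe detects, and the sequences of the probes were not used here.

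Ghr, the growth hormone receptor, differed by less. It read 0.61, 0.45 and 0.54 in adults, against -0.10, -0.02 and 0.10 at P10. The 3 adult arrays lay above the 3 P10 arrays, with means of 0.55 ± 0.08 and 0.02 ± 0.11 (SD, n = 2 each). The difference of 0.53 (SE 0.15, 1.44-fold) had a limma adjusted p of 0.0448, close to the threshold. It had an adjusted p of 0.0648 with no filter on dim probes. It did not pass without P10 arrays 1 and 2 (0.45, adjusted p = 0.448), nor without P10 array 3 (0.61, adjusted p = 0.306), nor after normexp background correction (0.51, adjusted p = 0.105). Both fits without P10 arrays leave P10 with 1 sample, which is then assumed to vary like the adults.

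**Figure D2:**
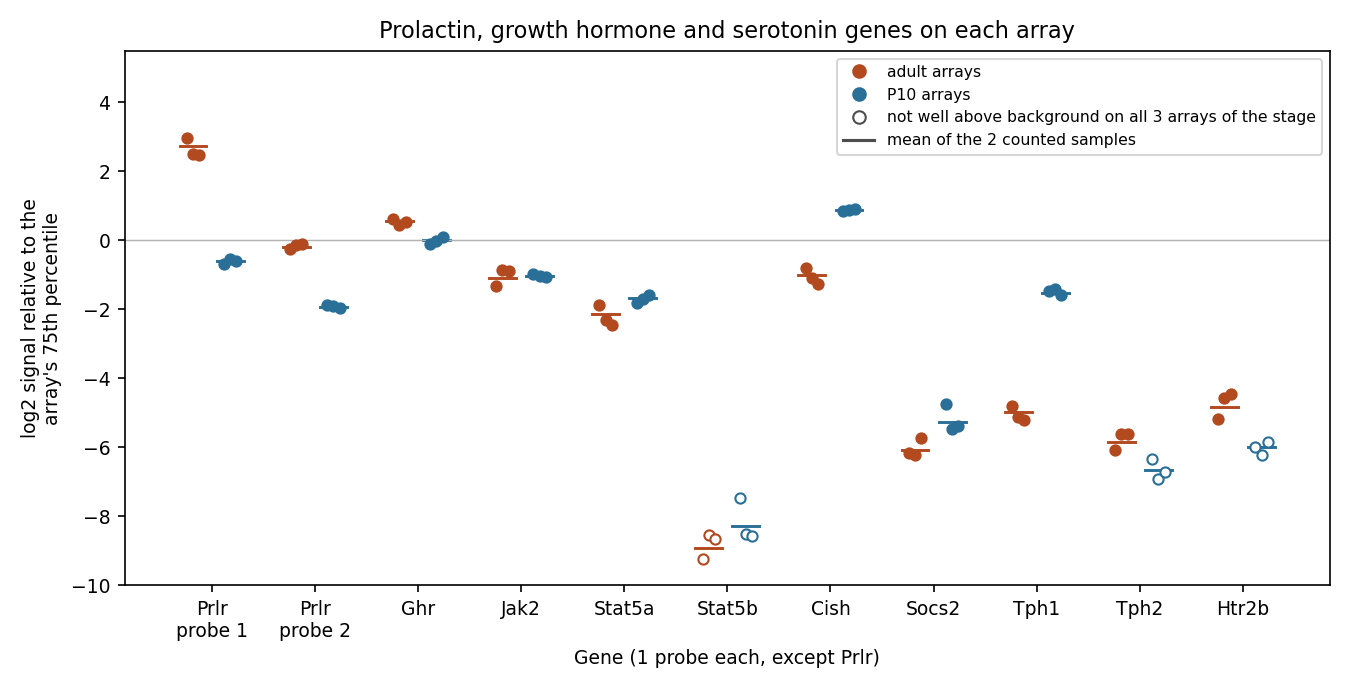
Log2 signal minus the 75th percentile of each array for the 11 probes of the 10 genes, with 1 point for each array, adult left of P10, and a bar at the mean of the 2 counted samples. Open points mark probes not well above background on all 3 arrays of that stage. Both Prlr probes lie higher in adults, Cish and Tph1 lie higher at P10, and the stages overlap for Jak2.

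Downstream of the receptors, neither the kinase nor the transcription factor that could be measured passed the test. Jak2 read -1.32, -0.85 and -0.89 in adults, against -0.97, -1.02 and -1.05 at P10. The P10 arrays lay within the adult range, and the difference was -0.07 (SE 0.21, limma adjusted p = 0.789, 95% interval -0.65 to 0.51). Its sign turned to 0.23 with median scaling and to 0.16 without adult array 1, both without passing. On slide 1 alone, which holds adult array 1 and the P10 arrays, Jak2 was lower in the adult array by 0.31 on the log2 scale (difference -0.31, adjusted p = 0.0177).

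Stat5a read -1.87, -2.32 and -2.44 in adults, against -1.82, -1.70 and -1.59 at P10. The adult arrays were the lower 3, although adult array 1 lay just under P10 array 1. The difference was -0.44 (SE 0.23, limma adjusted p = 0.178, 95% interval -1.09 to 0.20). It passed with all 6 arrays as separate samples (-0.50, adjusted p = 0.0388) and without adult array 1 (-0.70, adjusted p = 0.0105), but on slide 1 alone it was -0.16 (adjusted p = 0.266). Stat5b, its close paralog and chromosomal neighbour, gave unscaled signals of 4.37, 5.47 and 4.77 in adults, against 5.74, 2.66 and 2.63 at P10. None of these was well above background. The Stat5a probe gave 720, 409 and 360 in adults, against 287, 297 and 332 at P10, so signal of Stat5a was not seen on the Stat5b probe. Whether Stat5b transcripts add to the Stat5a signal was not tested.

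Cish, the feedback inhibitor with the 4 motif matches printed above, was lower in adults. It read -0.81, -1.10 and -1.25 in adults, against 0.85, 0.89 and 0.91 at P10. The P10 arrays lay close together and above all adult arrays. The means were -0.99 ± 0.26 in adults and 0.89 ± 0.03 at P10 (SD, n = 2 each), a difference of -1.88 (SE 0.18, limma adjusted p = 0.0041), which is 3.67-fold lower. The receptor Prlr and the feedback gene Cish thus moved in opposite directions.

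Socs2, another feedback inhibitor and best known for restraining growth hormone signalling, was dim. It read -6.16, -6.23 and -5.74 in adults, against -4.73, -5.48 and -5.38 at P10. On this scale the adult arrays were the lower 3 and the difference was -0.82 (SE 0.17, limma adjusted p = 0.0235). The unscaled signals overlapped, at 36.7, 27.3 and 36.6 in adults, against 38.3, 21.6 and 24 at P10. The call was lost in other settings: the difference was -0.10 after quantile normalization (adjusted p = 0.652), -0.52 after median scaling (adjusted p = 0.055) and -0.77 after normexp correction (adjusted p = 0.17). It was also lost on slide 1 alone (-0.96, adjusted p = 0.0678), without P10 arrays 1 and 2 (-0.69, adjusted p = 0.264) and without P10 array 3 (-0.96, adjusted p = 0.138).

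Tph1, the tryptophan hydroxylase that makes serotonin outside the nervous system, showed the largest fall among the members. It read -4.81, -5.11 and -5.21 in adults, against -1.48, -1.41 and -1.58 at P10. No adult array came within 3 log2 units of a P10 array. The means were -4.98 ± 0.24 in adults and -1.51 ± 0.10 at P10 (SD, n = 2 each), a difference of -3.47 (SE 0.18, limma adjusted p = 0.00156), or 11.1-fold lower. The unscaled signals, 93.6, 59.4 and 52.8 in adults and 365, 365 and 334 at P10, were apart in the same direction, and the probe was well above background on all 6 arrays.

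Tph2, the hydroxylase best known from serotonin neurons, was dim in both stages. It was well above background on the 3 adult arrays and on none of the P10 arrays, so it entered the test only through the adults. It read -6.09, -5.60 and -5.62 in adults, against -6.33, -6.91 and -6.72 at P10. The adult arrays were the higher 3, with a fitted difference of 0.82 (SE 0.22, limma adjusted p = 0.0414), or 1.76-fold. With the P10 level not measured, this fold holds for this scaling only and is no firm bound. After quantile normalization the log2 difference was 1.76 (adjusted p = 0.00114). The sign turned after normexp correction (-0.39, adjusted p = 0.41), and the call was lost on slide 1 alone (0.56, adjusted p = 0.117), without P10 arrays 1 and 2 (0.87, adjusted p = 0.205) and without P10 array 3 (0.77, adjusted p = 0.245).

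Htr2b, the serotonin receptor of beta cells in mouse pregnancy, read -5.17, -4.57 and -4.44 in adults, against -5.98, -6.22 and -5.85 at P10. It was well above background on 3 adult and 2 P10 arrays, so it too entered the test only through the adults. The adult arrays were the higher 3, and the difference was 1.14 (SE 0.28, limma adjusted p = 0.0351), or 2.2-fold. The difference was 1.83 with quantile normalization (adjusted p = 0.00312) and -0.23 after normexp correction (adjusted p = 0.663), which turns its sign. It did not pass without P10 arrays 1 and 2 (1.02, adjusted p = 0.174) or without P10 array 3 (1.26, adjusted p = 0.108).

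The slide could not be separated from part of the adult spread. Adult arrays 2 and 3 shared 1 scan date (slide 2) and the other 4 arrays another (slide 1). Within slide 1, which holds 1 adult array against 3 P10 arrays, the Prlr differences were 3.59 and 1.67 for the 2 probes, the Ghr difference 0.61, the Cish difference -1.69, the Tph1 difference -3.32 and the Htr2b difference 0.85. All of these passed there, with limma adjusted p-values of 0.000122 for Prlr probe 1, 0.000258 for Prlr probe 2, 0.00784 for Ghr, 0.000208 for Cish, 0.000136 for Tph1 and 0.0123 for Htr2b. That fit has 1 adult array, assumed to vary like the P10 arrays. It also enters P10 arrays 1 and 2 as separate samples, although they differed by less than spot noise, so its p-values may rest on technical spread. Relative to the median of all probes under the main scaling, the differences were 3.57 and 1.98 for the Prlr probes, -1.65 for Cish and -3.24 for Tph1. The plot of the differences under 5 settings shows that Prlr, Cish and Tph1 keep their side of 0 and their calls in each, while Tph2 and Htr2b lie on either side of 0.

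**Figure D3:**
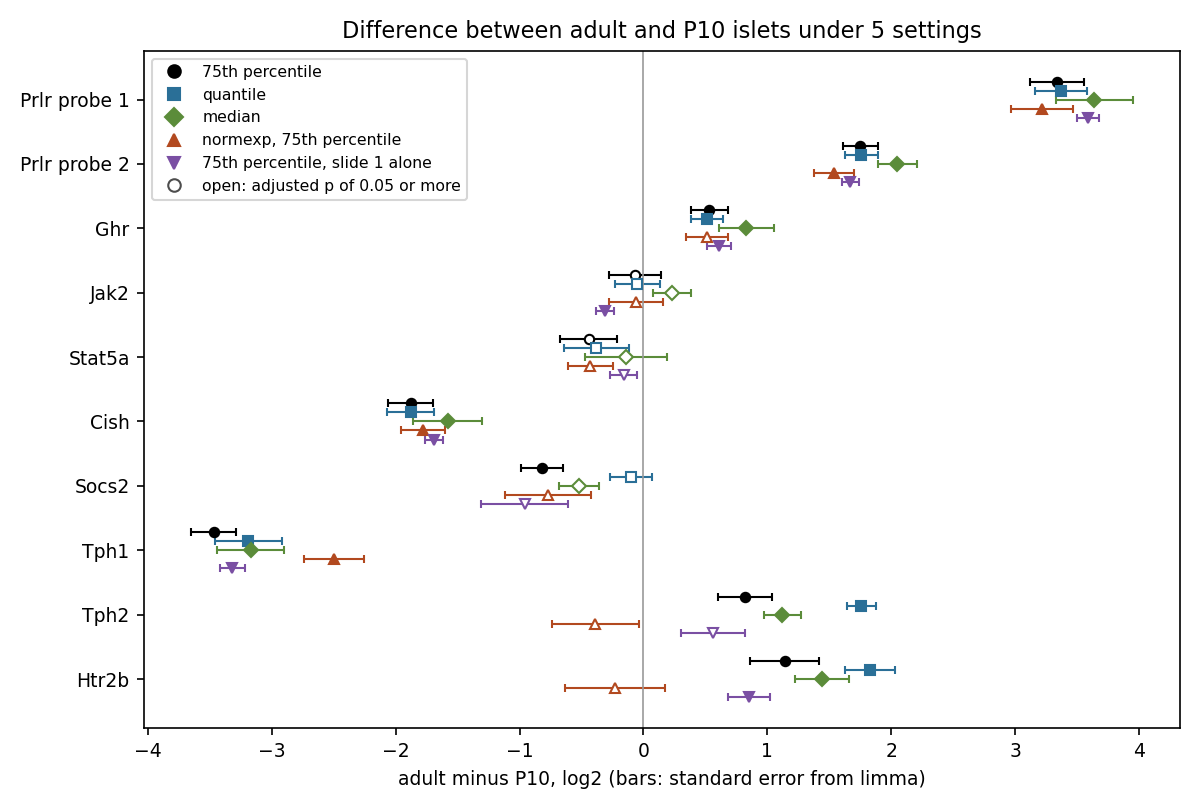
Difference between adult and P10 islets (adult minus P10, log2, bars are limma's standard error) for the 10 tested probes under 5 settings. Filled symbols have an adjusted p under 0.05. Prlr, Cish and Tph1 are filled in each setting, and Tph2 and Htr2b cross 0 with normexp correction.

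The genes whose pattern over the 6 arrays was most like that of a member were found by the root mean square difference of log2 levels, each gene centred on its own mean, among 11169 tested genes. For Prlr these were Nap1l5 (0.072), Stmn2 (0.074) and Nell2 (0.075). For Cish they included Acsl3 (0.043) and RGD1562699 (0.054). For Tph1 they were Abcg2 (0.076), Ddah1 (0.1) and Ihh (0.111). Smaller values mean closer patterns, and 6 arrays in 2 stages leave these patterns resting mostly on the difference between stages.

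Of the hormone genes whose products act on these receptors, 1 of 4 was well above background on all 6 arrays. Prl (prolactin) and Prl3b1, a placental lactogen of rodents, failed the background test on every array, and Gh1 (growth hormone) passed it on adult array 3 alone. Prl3d1, another placental lactogen gene and the 1 measured throughout, averaged -5.82 ± 0.81 in adults and -4.29 ± 0.31 at P10 (SD, n = 2 each) and did not pass (difference -1.53, limma adjusted p = 0.0554). It passed with quantile normalization (-0.96, adjusted p = 0.0394), median scaling (-1.23, adjusted p = 0.0409), all 6 arrays (-1.41, adjusted p = 0.014) and slide 1 alone (-2.18, adjusted p = 0.0028). Igf1, the growth factor that growth hormone induces in liver, was not well above background in adults. Its probes thus entered the test only through P10, where they are higher, so their calls add nothing to the counts. On this scaling all 4 of its probes were lower in adults, by at least 10.2, 9.59, 6.29 and 4.26-fold (brightest probe: limma adjusted p = 0.0024). These folds are no firm bounds, since the brightest probe differed by -3.84 here and by -2.88 with quantile normalization. After normexp correction the brightest probe no longer passed (-1.42, adjusted p = 0.0809).

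Among 22 tested relatives of the JAK, STAT and SOCS families and their partners, 5 were higher in adults, 5 were lower and 12 did not pass, with a median difference of 0.14. Beside this and the later lists stand the shares over all protein-coding genes tested, 23.7% higher and 28.7% lower. The higher genes included Socs5 (1.77, limma adjusted p = 0.00389), Bcl6, a repressor that STAT5 is known to hold down in liver (1.38, adjusted p = 0.00452), and Stat4 (1.06, adjusted p = 0.0217), which did not pass after normexp correction (0.59, adjusted p = 0.064). The lower genes included Pik3r1, a regulatory subunit of PI3-kinase, which was not well above background in adults. It thus entered the test only through P10, where it is higher. On this scaling it was at least 14.2-fold lower in adults (adjusted p = 0.00252). This fold is no firm bound, since Pik3r1 differed by -4.27 here and by -3.38 with quantile normalization. After normexp correction its difference was -1.61 (adjusted p = 0.0575). The kinases Jak3 (-2.17, adjusted p = 0.00185) and Jak1 (-1.76, adjusted p = 0.00606) and the phosphatase Ptpn1 (-1.36, adjusted p = 0.00374) were lower as well. Stat3 differed by 0.30 (adjusted p = 0.181), Socs1 by 0.06 (adjusted p = 0.91) and Socs3 by -0.90 (adjusted p = 0.135). Jak1 and Jak3 were thus lower while Jak2 did not pass, but the difference between the kinases was not tested. Tyk2 had no probe matched here.

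Of 7 other tested cytokine receptors that signal through JAK kinases, 2 were lower in adults and 5 did not pass. The lower ones were Epor, the erythropoietin receptor (-2.01, limma adjusted p = 0.00274), and Cntfr, a receptor of ciliary neurotrophic factor (-1.37, adjusted p = 0.0309). Cntfr was well above background on 2 adult and 3 P10 arrays, so it entered the test only through P10, where it is higher. It did not pass with quantile normalization (-0.35, adjusted p = 0.282) or normexp correction (-0.84, adjusted p = 0.186). The median difference was -0.44. Ghr and Prlr, from the same cytokine receptor class, were higher.

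Genes known from rodent islets or liver to respond to prolactin or growth hormone moved in both directions. Of 16 tested, 8 were higher in adults, 7 were lower and 1 did not pass, with a median difference of 0.68. With quantile normalization 8 were higher and 4 lower, and with normexp correction 8 were higher and 3 lower. Tnfrsf11b, which encodes osteoprotegerin and rises with lactogens in mouse beta cells, averaged 2.49 ± 0.33 in adults and -1.06 ± 0.02 at P10 (SD, n = 2 each), an 11.7-fold difference (limma adjusted p = 0.00182). The glucose transporter Slc2a2 (3.18, adjusted p = 0.00174) and Bcl6 were also higher. The cell cycle genes Ccnd2 (-2.40, adjusted p = 0.00156) and Foxm1 (-2.27, adjusted p = 0.00197), the peroxisomal enzyme gene Ehhadh (-1.51, adjusted p = 0.0472) and Igf1 were lower. Of these, Igf1 entered the test only through P10, where it is higher. Another cyclin gene, Ccnd1, was higher (1.01, adjusted p = 0.024). Ehhadh did not pass with quantile normalization (-1.38, adjusted p = 0.0634) or median scaling (-1.21, adjusted p = 0.118). Genes of this list are listed for their response in other settings, and most also respond to other signals. Bcl2l1, an anti-apoptotic gene counted as higher by its brightest probe (0.97), had 2 dimmer probes that were lower (-3.18 and -3.15).

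**Figure D4:**
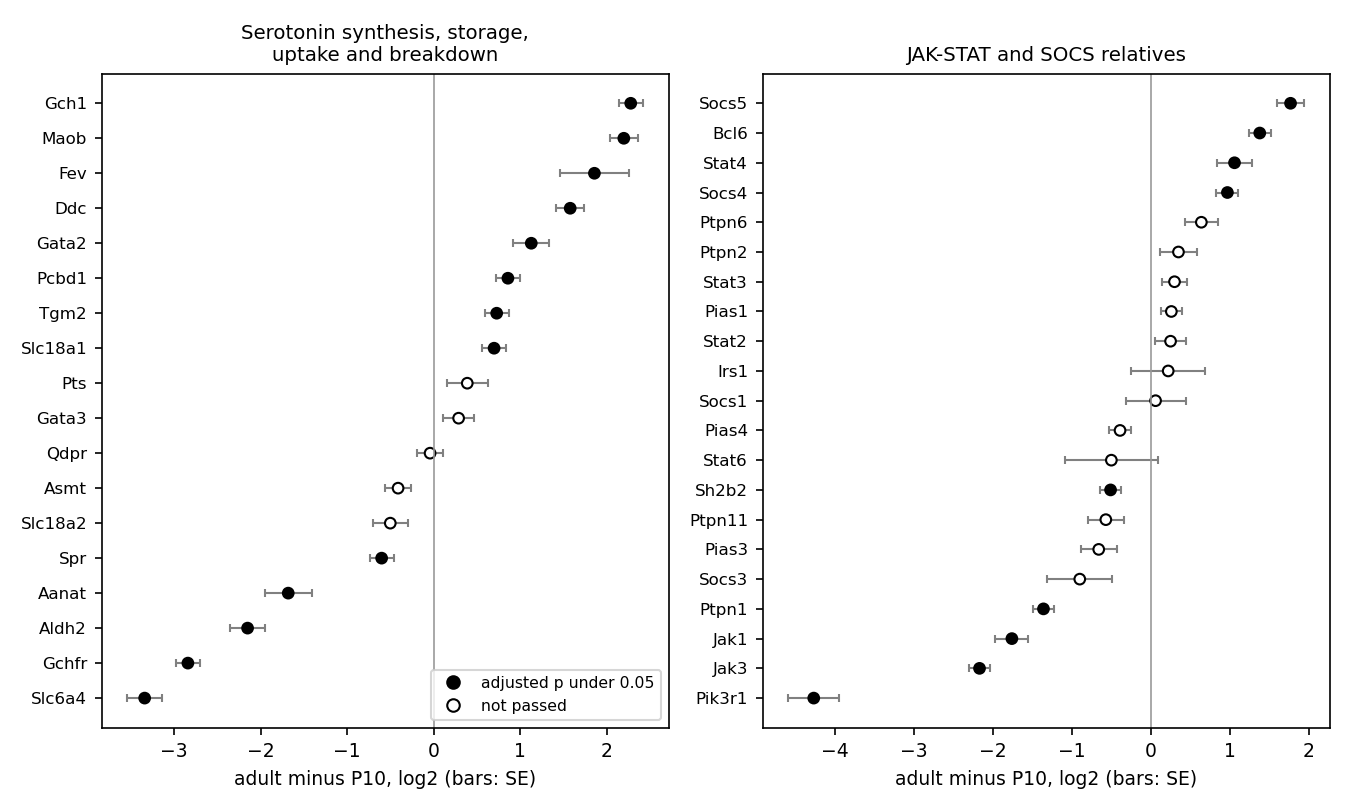
Difference between adult and P10 islets (adult minus P10, log2, bars are limma's standard error) for 18 genes of serotonin synthesis, storage, uptake and breakdown (left) and for the JAK-STAT and SOCS relatives reported here (right). Filled points have an adjusted p under 0.05. Gch1 is highest and Slc6a4 lowest on the left, and Socs5 and Pik3r1 are the ends on the right.

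Genes around serotonin did not move as 1 group with Tph1. Of 18 tested genes of its synthesis, storage, uptake and breakdown, 8 were higher in adults, 5 were lower and 5 did not pass, with a median difference of 0.34. Higher were Gch1, which makes the cofactor of the hydroxylases (2.28, limma adjusted p = 0.00185), the oxidase gene Maob (2.20, adjusted p = 0.00233), Fev, a transcription factor of serotonin neurons and islets (1.86, adjusted p = 0.0248), and Ddc, the decarboxylase that follows the hydroxylases (1.58, adjusted p = 0.00462). The vesicle transporter Slc18a1 was higher by 0.70 (adjusted p = 0.023), and this was lost after normexp correction (adjusted p = 0.0929). Its relative Slc18a2 differed by -0.50 (adjusted p = 0.111).

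The lower genes of serotonin handling included its uptake transporter. Slc6a4 read -4.0, -3.63 and -3.54 in adults, against -0.38, -0.38 and -0.52 at P10, with no overlap. The difference was -3.34 (SE 0.20, limma adjusted p = 0.00184), or 10.1-fold lower, close in size to that of Tph1. Gchfr, the feedback regulator of the enzyme that Gch1 encodes, was lower (-2.84, adjusted p = 0.0015), so this pair moved in opposite directions. Aldh2, whose fit lacked adult array 2, was lower by 2.15 (difference -2.15, adjusted p = 0.00359), and Aanat, which starts the path from serotonin to melatonin, was lower (-1.68, adjusted p = 0.0124), though not after normexp correction (-1.09, adjusted p = 0.121). Maoa and Lmx1b had no probe matched here.

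Few serotonin receptors other than Htr2b gave signal. Of 13 listed, 3 were tested, of which 1 was lower in adults, Htr2c (-1.81, limma adjusted p = 0.00449). Htr2c was well above background on 2 adult and 3 P10 arrays, so it entered the test only through P10, where it is higher. It did not pass after normexp correction (-0.98, adjusted p = 0.129). Htr3a (-0.24, adjusted p = 0.336) and Htr6 (-0.51, adjusted p = 0.351) did not pass. Htr1a, Htr1b, Htr1d, Htr2a, Htr3b and Htr4 failed the background test on every array. Htr1f and Htr5a passed it on 1 adult array each and Htr7 on 1 P10 array, and Htr5b had no probe matched.

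Markers of several cell types differed between the stages, and their part in the differences above was not tested. Islet identity was present in both: the 10 mature beta cell markers summed to 284 to 389 times the 75th percentile signal in adults, against 332 to 367 times at P10. Of these, 7 were higher in adults, Slc2a2 (3.18) and Ucn3 (2.67) among them, and 1 was lower, with a median difference of 2.77. Prlr, whose protein is found on beta cells, stands beside this list with 3.34. Of 8 alpha cell markers, 6 were higher and 2 lower.

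Beside Tph1 and Slc6a4, which intestinal epithelium also uses, stand the enterocyte markers. All 14 tested were lower in adults, with a median difference of -8.40, and their summed signal was 10.2 to 12.5 in adults, against 411 to 426 at P10. Among those well above background on all 6 arrays, 10 were tested and 10 were lower, with a median of -7.35. The rest entered the test only through P10, where they are higher. After normexp correction the median difference of the 14 was -6.82. Apoa4 and Treh of this list were not well above background on any adult array. Enterochromaffin cells, the serotonin cells of the gut, share genes with islet cells, among them Chga, Ddc and Fev. Of 8 such markers 7 were higher in adults and 1, Lmx1a, was lower (-2.99, adjusted p = 0.00289). Among those well above background on all 6 arrays, 7 were tested and 0 were lower. Lmx1a thus entered the test only through P10, where it is higher. After normexp correction 5 markers were higher and 0 lower. The 8 markers summed to 72.9 to 86.7 in adults, against 22.7 to 25 at P10. Of 11 mast cell markers 5 were higher, 1 was lower and 5 did not pass, with sums of 2.94 to 3.6 in adults, against 2.53 to 2.71 at P10.

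Beside Tph2 and Fev, which serotonin neurons use, stand 7 markers of neurons and Schwann cells, of which 5 were higher in adults and 2 did not pass, with a median difference of 1.33. They summed to 30.0 to 32.3 in adults, against 6.52 to 6.63 at P10. Uchl1 (2.56) and Elavl4 (2.42) were among the higher ones, and Sox10 (0.18) did not pass.

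Beside Stat4 and Jak3, which leukocytes express, stand the leukocyte markers, of which 11 of 13 were higher in adults and 1 was lower. They summed to 68.5 to 78.8 in adults, against 9.38 to 13.8 at P10. Cd79b, Itgam and Cd4 of this list were not well above background on any P10 array, so they entered the test only through the adults. Of 13 acinar markers, 11 were lower and 2 did not pass, with sums of 627 to 929 in adults, against 1900 to 2010 at P10. After quantile normalization 1 acinar marker was higher and 5 were lower. Of 9 hepatocyte markers, a tissue rich in Ghr, 3 were higher and 5 lower, with sums of 13.7 to 18 in adults, against 16.0 to 17.2 at P10. The plot of summed marker signals sets these lists side by side.

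**Figure D5:**
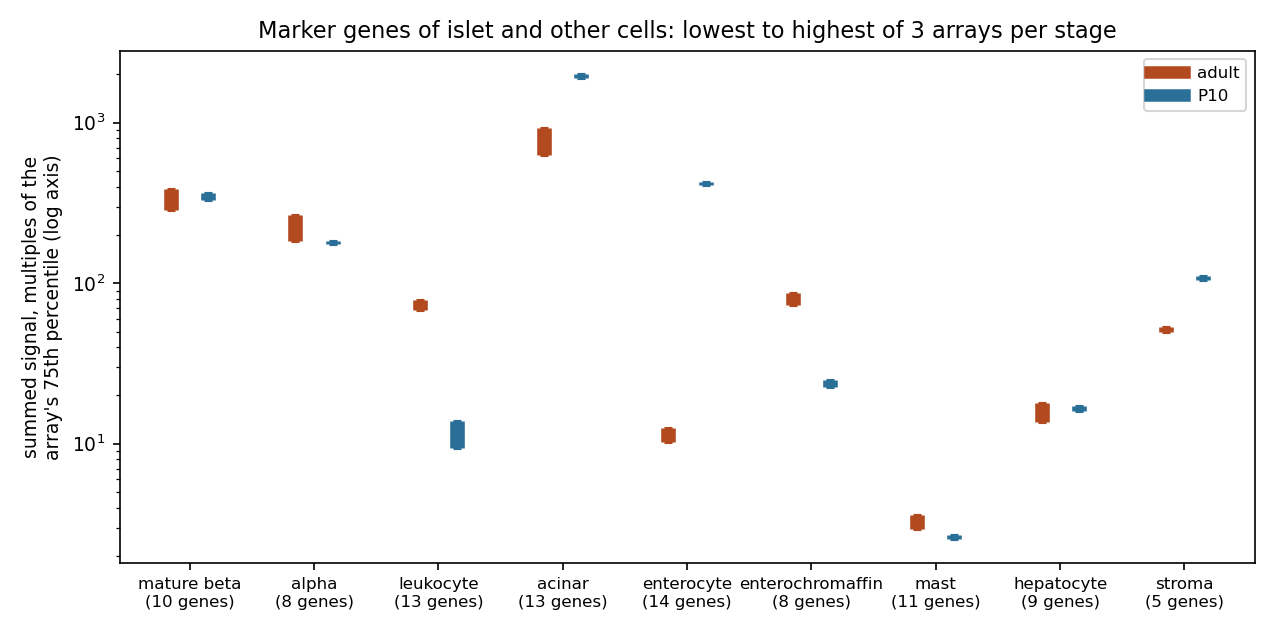
Summed signal of marker genes in multiples of the array's 75th percentile (log axis), drawn as the range from the lowest to the highest of 3 arrays for each stage, adult left of P10. Enterocyte, acinar and stroma sums are higher at P10, leukocyte and enterochromaffin sums are higher in adults, and the mature beta cell ranges overlap. Of the 5 stroma genes, 2 were called higher in adults and 3 lower.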

How the data were processed

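Rat islet RNA of 2 stages, 3 arrays each, had been scanned in 1 channel. Each deposited scanner file gives an intensity for every spot. The submitters' processing notes name Agilent Feature Extraction 11.0.1.1 as the reader. Background had been subtracted from the processed intensity, per the file headers. The authors also deposited normalized log2 values, with the method not given in the sources used here. For 98.79% of entries they were within 0.05 of the processed signals after quantile normalization, with column medians of 9.2 to 9.22. The number of columns left unmatched to a sample was 0.

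The 10 members and all gene lists were chosen with earlier results of these data known. Outlier-flagged spots were dropped, spots of a probe were averaged as log2 intensity, and each array's 75th percentile was subtracted. A probe entered the fit when 1 or both stages had it well above background on all 3 arrays. The fit of adult minus P10 used limma 3.58.1 (lmFit, eBayes) under R 4.3.3 and was first tested on simulated data. Genes entered lists by their brightest probe. Symbols came from RefSeq accessions and the GRCr8 gene table, which named 14294 of 24684 probes. The header names an older build, so no coordinates of probes are given.

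Variances between arrays were set against the spread of probes with at least 3 spots. The adult pair slightly exceeded it (1.07 times over all probes, 1.19 times over brighter ones), while P10 arrays 1 and 2 did not (0.77 and 0.97 times). P10 array 3 stood above it only over brighter probes (2.3 and 1.49 times, against 0.91 and 0.85 times over all). The plan was to average the pairs only if their differences did not exceed spot noise, and otherwise to enter all 6 arrays. The adult pair exceeded it slightly, so averaging both pairs departs from that plan. It was kept as the more cautious count. The fit on all 6 arrays is given beside it, with 4 members higher and 4 lower.

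All members were named, then up to 4 genes in each direction of each pathway list by size of difference among those called, together with a set list of ligands, kinases, SOCS genes and serotonin genes. Pcbd1, Tgm2, Gata2, Spr, Socs4 and Sh2b2 appear as plotted points. Bcl2l1 and Ccnd1 were named after their values were seen. A few genes that this rule would name are counted but not reported here. Alternatives were quantile and median scaling, normexp correction (offset 50) on median rather than mean spot signals, since the files hold no mean, the authors' values, 2 other filters, slide, a replicate block and leaving out each counted sample.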

Additional observations from a re-analysis of the deposited data

How the results depend on the processing

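Over 136 alternative values for the 10 tested member probes, 109 kept direction and side of the threshold, 19 kept direction but no longer passed, 4 came to pass and 4 changed sign. The 4 sign changes were Jak2 with median scaling (0.23) and without adult array 1 (0.16, against -0.30 without adult arrays 2 and 3), and Tph2 (-0.39) and Htr2b (-0.23) with normexp correction; the cause was not tested. Both Prlr probes (3.10 to 3.64 and 1.54 to 2.05), Cish (-2.06 to -1.58) and Tph1 (-3.64 to -2.50) kept their calls under all 14 alternatives.

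The count of members higher in adults was 4, and became 1 with normexp correction, 2 with the authors' values, 2 with no filter on dim probes and 2 with probes well above background on all 6 arrays. The authors' values and the last of these test fewer members, 7 in place of 9. Leaving out 1 counted sample gave 1 to 4 higher and 2 to 4 lower members. Of 66 pathway genes, 20 were higher and 20 lower. Lower pathway genes became 10 with normexp correction and 12 with the authors' values, and leaving out 1 counted sample gave 7 to 30 higher and 11 to 33 lower.

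Over all probes, 3909 were higher and 5698 lower. Normexp correction gave 2126 and 2722, no filter 8599 lower, the slide as a block 9057 lower and slide 1 alone 9032 lower. Leaving out 1 counted sample gave 1572 to 5886 higher and 2353 to 8931 lower. Lower calls were 59.3% of all calls and 47.7% with median scaling, where the median difference was 0.07, against -0.23 in the fit reported.

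Same-numbered arrays did not deviate together (correlations of -0.21, 0.08 and -0.24), so the numbers do not pair the samples. With the replicate number as a block on 6 arrays, 4 members were higher and 3 lower, 21 pathway genes were higher and 23 lower, and 4713 probes were higher and 6786 lower.

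Tph2, Htr2b and Socs2 were dim. The signs of Tph2 and Htr2b rest on how background is treated, and the size of the Socs2 difference on the scaling. With 2 counted samples per stage and 1 adult array on the slide shared with P10, small differences such as those of Ghr and Stat5a were not settled. Pup sex was not given, so stage and sex cannot be told apart.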
